A study of Mus musculus with 6 samples.

Results

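The genes described here are 9 members of the bone morphogenetic protein (BMP) pathway and its Id target genes in mouse oligodendrocyte precursor cells (OPCs): Bmp4, Bmp7, Bmpr1a, Smad6, Smad7, Id1, Id2, Id3 and Id4. They were chosen by name, and every element that the activity-by-contact (ABC) model paired with one of them was taken. The members held 27 of the 66637 listed element-gene pairs in Ctr-OPCs and 30 of the 71478 in IFN-γ-OPCs. All 9 had a listed pair in at least 1 table, where 32049 genes in all were listed, and 7 had one in both. Smad6 was listed in Ctr-OPCs alone and Id4 in IFN-γ-OPCs alone.

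BMP ligands are secreted dimers that bring type I and type II serine/threonine kinase receptors together, and the activated type I receptor phosphorylates the receptor-regulated Smads, which enter the nucleus with Smad4. Id genes and the inhibitory Smads Smad6 and Smad7 are among the best known direct targets of this signal. Id proteins have a helix-loop-helix but no DNA-binding region, so that they hold basic helix-loop-helix (bHLH) factors such as the E proteins away from DNA. In the oligodendrocyte lineage BMP signalling and Id2 and Id4 are known to restrain differentiation, and BMP ligands can turn cultured precursors towards astrocytes.

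The series measured H3K27ac HiChIP, in which chromatin contacts are enriched for fragments that carry acetylated H3K27, a histone mark of active promoters and enhancers. There were 3 libraries of untreated OPCs (Ctr-OPCs, IFN-γ at 0 ng/mL) and 3 of OPCs given 100 ng/mL of the cytokine interferon-gamma from 24 h after passaging (IFN-γ-OPCs). Both groups came from Sox10-Cre/RCE mice labelled C57BL/6j, in which the Sox10 promoter drives the Cre that switches on EGFP in the whole oligodendrocyte lineage, and per the study's methods the reporter line had a mixed background that includes CD1. Also per those methods, brains of several pups at postnatal days 4 to 6 were pooled, precursors were taken by GFP sorting or with CD140a beads, and all cultures grew in a proliferation medium with PDGF-AA and bFGF, which holds precursors undifferentiated. The labels do not give the length of the treatment, though the study's methods state one for primary OPC cultures. The dose of bFGF in the labels differs from that in those methods. The members' values are therefore those of a purified, cultured population, and fewer cells of a type cannot be told apart from less signal per cell.

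Each condition had 1 table that pooled its 3 libraries, so the values of the members have no replicate error and no test was made of any difference. The depth behind a value is unknown, since the tables give no read counts. A pair was described by the activity of the element (a signal in arbitrary units, derived from ATAC-seq and H3K27ac CUT&RUN coverage of the same condition), by its adjusted contact with the gene's start, and by the ABC score, the share that activity times contact takes of the sum over all elements around that gene. The contacts of the same pair differ between the tables, but whether each table took them from a map of its own condition is not given in the sources used here, and this bears on every contact ratio below. The sum over all elements, here called the gene total, was recovered for each member. Where 2 values are given without their condition, that of Ctr-OPCs comes first. A connection was a pair with a score above 0.05, and a difference was counted when it passed 1.5-fold. Pairs under a score of 0.02 were not listed, nor were genes with a promoter activity quantile under 0.4, so that the absence of Smad6 or Id4 from a table gives no level.

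Some elements of Bmpr1a, Bmp4, Id1, Id2 and Id3 are shown by their middle 300 bases (GRCm38, mm10). They are read 5′ to 3′ on the strand of the gene, with the sequence from RefSeq GRCm38.p6. Capitals mark a match, on either strand, to 1 of 5 letter patterns: TTCNNNGAA (the GAS form, an interferon-gamma activated site), GAAANNGAA (a pair of GAAA-type repeats as in the interferon-stimulated response element, ISRE), GGCGCC (a GC-rich form bound by BMP-regulated Smads), GTCTAGAC (a paired Smad box) and CAGCTG (an E-box bound by bHLH factors). A match describes the letters and does not show that a factor binds there. The Bmpr1a element, 5.27 kb before the gene's start at chr14:34508466-34508765 on the minus strand, is shown because its score differed most between the conditions. The Bmp4 element, 7.59 kb before the start at chr14:46398113-46398412 on the minus strand, was the only connection of Bmp4. The remaining 4 shown were connections of the Id genes. For Id1 the element lay 1.07 kb before the start at chr2:152735035-152735334 on the plus strand. For Id2 it lay 1.78 kb before the start at chr12:25098767-25099066 on the minus strand. For Id3 they lay 3.01 kb before and 4.43 kb after the start at chr4:136140337-136140636 and chr4:136147774-136148073 on the plus strand. The connections of Id2 0.927 kb after and of Id3 8.19 kb before the start are not shown. The first holds part of an untranslated region.
Bmpr1a, 5 kb before the start: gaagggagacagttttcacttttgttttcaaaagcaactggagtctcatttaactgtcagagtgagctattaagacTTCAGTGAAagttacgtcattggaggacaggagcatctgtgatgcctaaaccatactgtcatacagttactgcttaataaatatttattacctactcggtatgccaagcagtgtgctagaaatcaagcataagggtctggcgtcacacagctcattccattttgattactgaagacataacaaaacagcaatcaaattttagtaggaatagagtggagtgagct
Bmp4, 8 kb before the start: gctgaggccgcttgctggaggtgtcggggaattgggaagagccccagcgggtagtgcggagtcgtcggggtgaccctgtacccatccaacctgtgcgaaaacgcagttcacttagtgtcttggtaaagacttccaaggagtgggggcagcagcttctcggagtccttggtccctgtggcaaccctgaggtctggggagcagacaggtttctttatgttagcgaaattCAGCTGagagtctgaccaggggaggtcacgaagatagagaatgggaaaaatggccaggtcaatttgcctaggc
Id1, 1 kb before the start: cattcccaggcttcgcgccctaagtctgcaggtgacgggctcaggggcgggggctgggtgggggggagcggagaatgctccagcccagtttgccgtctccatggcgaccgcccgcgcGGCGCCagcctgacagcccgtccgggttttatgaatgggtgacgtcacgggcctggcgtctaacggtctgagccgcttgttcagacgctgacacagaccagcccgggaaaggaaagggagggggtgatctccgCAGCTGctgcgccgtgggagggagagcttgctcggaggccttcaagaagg
Id2, 2 kb before the start: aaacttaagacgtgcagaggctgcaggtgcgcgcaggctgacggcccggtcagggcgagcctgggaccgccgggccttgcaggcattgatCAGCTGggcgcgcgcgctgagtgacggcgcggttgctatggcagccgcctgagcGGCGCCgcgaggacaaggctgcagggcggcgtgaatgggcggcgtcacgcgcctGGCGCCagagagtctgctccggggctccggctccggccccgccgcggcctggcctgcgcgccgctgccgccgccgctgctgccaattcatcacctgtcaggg
Id3, 3 kb before the start: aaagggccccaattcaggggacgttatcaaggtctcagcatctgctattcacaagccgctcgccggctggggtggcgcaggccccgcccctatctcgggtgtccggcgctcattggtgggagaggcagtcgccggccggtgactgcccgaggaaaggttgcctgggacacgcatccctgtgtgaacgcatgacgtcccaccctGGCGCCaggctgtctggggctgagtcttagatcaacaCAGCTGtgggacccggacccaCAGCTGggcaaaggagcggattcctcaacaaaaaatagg
Id3, 4 kb after the start: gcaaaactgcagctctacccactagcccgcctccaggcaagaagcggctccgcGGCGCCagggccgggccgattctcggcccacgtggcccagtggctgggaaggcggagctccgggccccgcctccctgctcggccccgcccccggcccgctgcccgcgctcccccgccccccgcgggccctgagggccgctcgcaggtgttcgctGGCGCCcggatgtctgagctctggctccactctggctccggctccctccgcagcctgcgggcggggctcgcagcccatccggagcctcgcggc

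In the 500 bases at the centre of 31 member elements, which leave out those of Smad7, GGCGCC was found in 15, or 48.4%, where 7.62% of all elements of the Ctr-OPC table and 7.15% of the IFN-γ-OPC table held it. The Id genes held most of them, with a match in 11 of 17 elements (64.7%), against 4 of 14 (28.6%) for the other members. The pattern is rich in GC and so were these elements: the median GC content was 60.6% for the Id genes, 54.8% for the other members, and 50.6% and 49.8% for all elements of the 2 tables. Among elements with at least 60% GC, 9 of 10 Id elements held GGCGCC, against 39.7% and 40.3% of all such elements. CAGCTG stood in 18 of the 31 elements (58.1%), against 37.3% and 35.97% of all, and in 13 of the 17 Id elements (76.5%). Neighbouring elements of 1 gene share their locus and base composition, so these counts are descriptions and were not tested.

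The interferon-type patterns were found in 3 member elements. TTCNNNGAA was found in 1 of the 31 elements, the one 5.27 kb before Bmpr1a that is printed above as TTCAGTGAA, while 13.9% and 15.2% of all elements of the tables held it. GAAANNGAA was found in 2 of the 31 (6.45%), 3.01 kb before Id3 and 755 kb after Id4, against 13.7% and 17.0% of all elements. These patterns are poor in GC, and within classes of GC content the members' elements are few. Under 50% GC TTCNNNGAA stood in 1 of 5 member elements (20%) and GAAANNGAA in 0 of 5, where 17.1% and 18.6% of all such elements held the first and 17.98% and 22.05% the second. From 50 to 60% GC TTCNNNGAA stood in 0 of 14 and GAAANNGAA in 2 of 14 (14.3%), where 12.1% and 12.7% of all held the first and 11.1% and 12.6% the second. At 60% GC or more none of 12 member elements held either, where each pattern stood in 5.13% to 6.54% of all such elements. GTCTAGAC was found only in the element 30.1 kb before Id1, and 0.475% and 0.504% of all elements held it. In the 250 bases before the start that RefSeq gives, read for the 6 members with a promoter entry, GGCGCC stood for Bmpr1a, Id2 and Id4 and in 9.59% of 32841 promoters, and CAGCTG stood for Id2 and in 13.0% of promoters. For Bmpr1a, Id2 and Id3 the RefSeq start lies inside the gene as GENCODE gives it, so that this stretch follows the start used for distances here, and for Id2 it falls within the element 0.927 kb after that start. None of the 5 patterns was in that stretch for Bmp4, Id3 or Smad6, and Id1, Bmp7 and Smad7 were not searched.

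The listed elements of these genes lay close to their starts. Of 35 distinct pairs, 22 were within 10 kb of the member's start and 3 were over 500 kb away, with a median distance of 4.60 kb in Ctr-OPCs and of 6.86 kb with IFN-γ, where the medians over all pairs were 15.1 and 15.8 kb. By place, 20 elements were intergenic and 15 within a gene, 10 of these within the member itself, and 3 overlapped an annotated start of the member. The members had 7 connections in Ctr-OPCs against 9 in IFN-γ-OPCs, spread over 4 and 6 genes, all within 8.19 kb of a start. The number was higher by 1 for Bmp4 and for Bmpr1a and lower for no member, though Id3 had 1 connection in place of another, so that 2 of 9 had more connections, where 14.9% of all genes had more and 13% had fewer. The plot of scores shows how close to the cut-off most of these pairs lay.

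**Figure D1:**
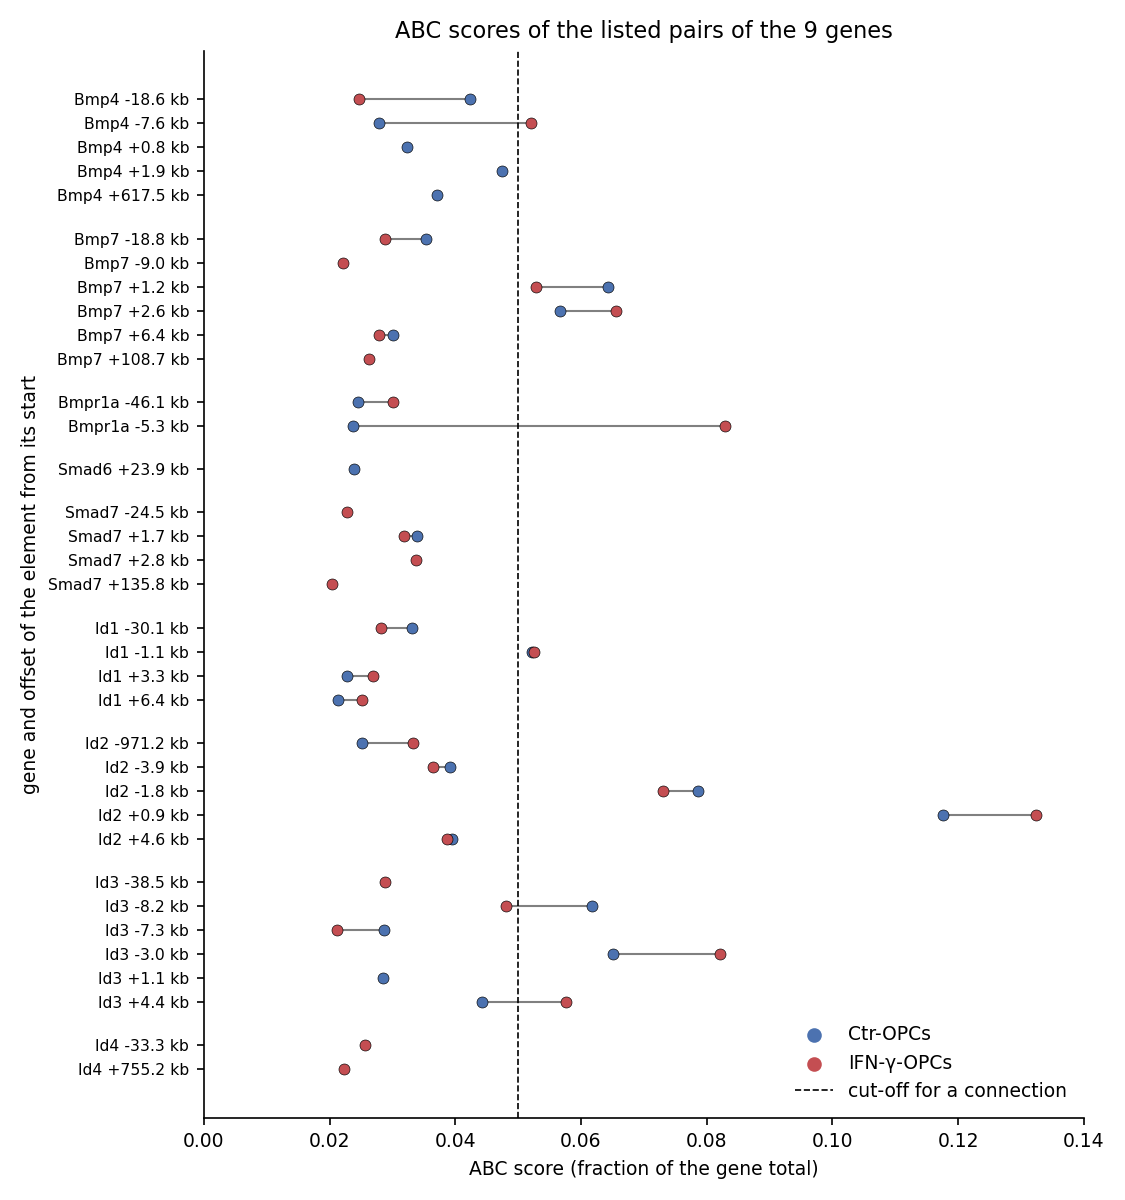
ABC scores of all listed pairs of the 9 genes, each row 1 element named by its offset in kb from the gene's start (minus is before it), with Ctr-OPCs in blue, IFN-γ-OPCs in red and the cut-off of 0.05 dashed; a missing point is a pair not listed in that table. The element 5.3 kb before Bmpr1a has the widest gap, 0.0237 against 0.0830, and the element 0.9 kb after the start of Id2 the highest scores, 0.118 and 0.132.

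Pairs of the members recurred in both tables. Of the 7 connections in Ctr-OPCs, 6 overlapped a connection of the same gene in IFN-γ-OPCs (85.7%), and 6 of the 9 in IFN-γ-OPCs overlapped one in Ctr-OPCs (66.7%), where the shares over all genes were 49.5% and 46.3%. For all listed pairs the members' shares were 22 of 27 (81.5%) and 22 of 30 (73.3%), against 45.8% and 42.8%. Of the 13 pairs listed in 1 table alone, 5 had their element listed for other genes in the other table and 8 had no overlapping element there for any gene.

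Bmp4 had the lower of the ligands' totals, and fewer elements were listed for it in IFN-γ-OPCs. Bmp4 (ENSMUSG00000021835, chr14:46383520-46390669, minus strand) encodes a ligand that drives astrocyte formation from neural precursors. Its gene total was 0.546 in Ctr-OPCs against 0.445 in IFN-γ-OPCs, a log2 ratio of -0.30, and 95.5% of the 20321 genes listed in both tables had a higher ratio. The promoter activity quantile, the rank of the promoter's activity among all genes, was 0.640 and 0.516, the lowest of the members in both. Where the power law of distance stood in for contact, the log2 ratio of the Bmp4 total was -0.05.

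The 5 listed elements of Bmp4 in Ctr-OPCs and the 2 in IFN-γ-OPCs did not move together. The element 18.6 kb before the start kept an activity of 1.65 and 1.59, while its contact was 0.0140 and 0.00689, a log2 ratio of -1.03 that 1.86% of matched pairs went below. Its score was 0.0424 and 0.0246. The element 7.59 kb before the start went the other way in contact, 0.0433 against 0.0632, with an activity of 0.352 and 0.366, and its score of 0.0279 in Ctr-OPCs against 0.0520 in IFN-γ-OPCs made it a connection in the latter. With the power-law score Bmp4 had fewer connections in IFN-γ-OPCs, by a difference of -2. This element was called 500 bases long in Ctr-OPCs against 856 in IFN-γ-OPCs.

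Both elements inside Bmp4 were listed in Ctr-OPCs alone. They lay 0.767 and 1.87 kb after the start, in an intron, with activities of 0.494 and 0.724, a contact of 0.0358 for each and scores of 0.0323 and 0.0474. No overlapping element was listed for any gene in IFN-γ-OPCs. The antisense gene Gm15222, whose start lies 3150 bp from that of Bmp4, had 2 connections in Ctr-OPCs and was not listed in IFN-γ-OPCs. The farthest element of Bmp4, 617 kb after its start, scored 0.0370 in Ctr-OPCs with a contact of 0.00473, and in IFN-γ-OPCs it was listed for other genes with nearly the same activity, 4.28 and 4.25, but not for Bmp4. A score under 0.02 there would put its contact with Bmp4 below 0.00209.

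Bmp7, which encodes a ligand of the same family, kept its connections. Bmp7 (ENSMUSG00000008999, chr2:172868012-172940321, minus strand) had a gene total of 1.46 in Ctr-OPCs against 1.26 in IFN-γ-OPCs, a log2 ratio of -0.22, with promoter quantiles of 0.894 and 0.907. Where the power law of distance stood in for contact, the log2 ratio of the Bmp7 total was -0.10, near the -0.08 of all genes. Both connections of Bmp7 lay in the first few kilobases of the gene, 1.24 and 2.55 kb after the start. The first had activities of 2.49 and 1.99 and scores of 0.0643 and 0.0528, and the second had 2.20 and 2.47 and scores of 0.0567 and 0.0655. They lie in the same contact bin, with a contact of 0.0377 and 0.0333, so the order of the pair in each table is that of their activities. The first scored higher in Ctr-OPCs and the second in IFN-γ-OPCs.

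The other Bmp7 elements stayed under the cut-off. The element 18.8 kb before the start, which was also listed for Spo11, had activities of 3.18 and 2.25 and scores of 0.0353 and 0.0288, and was 1400 bases long in Ctr-OPCs against 500 in IFN-γ-OPCs. The element 6.44 kb after the start had activities of 2.38 and 2.78, contacts of 0.0185 and 0.0126 and scores of 0.0302 and 0.0279. Pairs 8.97 kb before and 109 kb after the start were listed in IFN-γ-OPCs alone, with scores of 0.0221 and 0.0262.

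Bmpr1a showed the widest difference in score of the 22 member pairs present in both tables. Bmpr1a (ENSMUSG00000021796, chr14:34410734-34503341, minus strand) encodes a type I receptor that binds Bmp2 and Bmp4 and phosphorylates Smad1, Smad5 and Smad9. The intergenic element 5.27 kb before its start had a score of 0.0237 in Ctr-OPCs against 0.0830 in IFN-γ-OPCs, 3.50-fold, and 112 of 29750 matched pairs of all genes (0.376%) had a larger ratio. It was the only pair of a member that passed 1.5-fold higher in both activity and contact. Having been picked as the widest of 22, it is a description of the pooled libraries.

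Both factors of the score were higher at this element. Its activity was 0.786 in Ctr-OPCs against 1.70 in IFN-γ-OPCs, a log2 ratio of 1.11, and 1.78% of 19332 matched elements had a larger one. Its contact was 0.0264 and 0.0418, a log2 ratio of 0.66, and 9.20% of 29750 matched pairs had a larger one. With contact replaced by the power law of distance the score was 0.0584 and 0.126, so that the element was above 0.05 in both conditions on that scale. The antisense gene Gm17110, with a start 1626 bp from that of Bmpr1a, had the same scores for it, Gm48953 had 0.0241 and 0.0519, and the protein-coding 9230112D13Rik had 0.0285 and 0.0308 with a lower contact in IFN-γ-OPCs (0.0291 and 0.0138), so the element cannot be tied to Bmpr1a alone.

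The rest of Bmpr1a differed little. The element 46.1 kb before the start, in an intron of Ldb3, had activities of 1.77 and 2.26, contacts of 0.0121 and 0.0114 and scores of 0.0245 and 0.0300. The gene total was 0.874 and 0.857, a log2 ratio of -0.03, and the promoter quantile 0.896 and 0.899. The share of the total held by listed elements was 4.82% in Ctr-OPCs against 11.3% in IFN-γ-OPCs, so that the nearby element took a larger part of a total of similar size. The bars for the elements of Bmpr1a show that the difference lay in the nearby one.

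**Figure D2:**
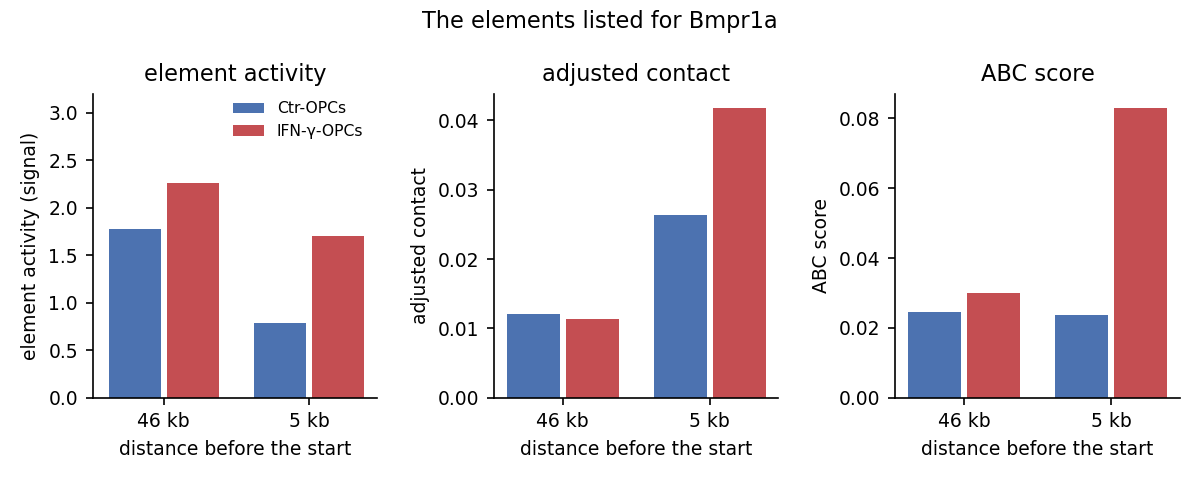
Activity (left, signal in arbitrary units), adjusted contact (middle) and ABC score (right) of both elements listed for Bmpr1a, 46 and 5 kb before its start, with Ctr-OPCs in blue and IFN-γ-OPCs in red; each bar is 1 pooled value with no error. At 5 kb all 3 quantities were higher in IFN-γ-OPCs (activity 0.786 against 1.70), and at 46 kb the contact was close in both (0.0121 against 0.0114).

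The inhibitory Smads had no connection in the conditions where they were listed. Smad6, which competes with the receptor-regulated Smads, was listed only in Ctr-OPCs, with 1 element 23.9 kb after the start in its own intron (activity 1.82, contact 0.0174, score 0.0239). Its gene total there was 1.32 and its promoter quantile 0.769. Smad7, which binds type I receptors and recruits the ligases that degrade them, was listed with 1 pair in Ctr-OPCs against 4 in IFN-γ-OPCs, and its listed pairs held 3.39% and 10.9% of the total. The total itself was 1.33 and 1.26, a log2 ratio of -0.07, and the promoter quantile 0.930 and 0.885.

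Of the Smad7 pairs 1 could be compared between the conditions, and it stayed within 1.5-fold in activity, contact and score. It lay 1.71 kb after the start, with activities of 1.21 and 0.933, contacts of 0.0372 and 0.0431 and scores of 0.0339 and 0.0318. The pairs 24.5 kb before, 2.80 kb after and 136 kb after the start, the last in an intron of Ctif, scored 0.0228, 0.0337 and 0.0204 in IFN-γ-OPCs alone. The elements of the first and last were listed for other genes in Ctr-OPCs, while no element overlapping the one at 2.80 kb was listed there for any gene. The start of Gm20544 lies 441 bp from that of Smad7 and shared its elements.

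The Id genes had 5 listed connections in each condition, more than the ligands, receptor and inhibitory Smads had in Ctr-OPCs (2) or IFN-γ-OPCs (4). Id4 in Ctr-OPCs and Smad6 in IFN-γ-OPCs were not listed, so their numbers there were not measured. Across the 13 Id pairs present in both tables, activity was lower in IFN-γ-OPCs in 12, with a median log2 ratio of -0.30, and contact was higher in 10, with a median of 0.39. Over all 19332 matched elements activity had a median of -0.08, with 42.1% above 0, and over all 29750 matched pairs contact had a median of 0.05, with 54.6% above 0. All 9 pairs of Id1 and Id2 had lower activity, by log2 ratios from -0.59 to -0.17. The tables' own median activity differed by a log2 ratio of -0.11, and with each table divided by its median these 9 were still all lower, from -0.48 to -0.06. Of all 13 Id pairs 10 were then lower. Pairs of 1 gene share a locus and often a contact bin, so they are not independent counts. The higher contacts include pairs in the start's own bin for Id1, Id2 and Id3, which have no separately measured contact. The median contact ratio is the one that the Id2 elements 3.88 and 1.78 kb before and 0.927 kb after the start share.

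Id1 kept 1 connection, at a lower activity and a nearly equal score. Id1 (ENSMUSG00000042745, chr2:152736251-152737410, plus strand) encodes an Id protein that responds quickly to BMP. The element 1.07 kb before its start had activities of 2.18 and 1.58 and contacts of 0.0364 and 0.0466. Its scores of 0.0523 and 0.0525 were nearly equal. This element lies in the start's own 5 kb contact bin, which has no separately measured contact. In IFN-γ-OPCs its contact equalled that of the bin after the start, while in Ctr-OPCs it did not (0.0364 against 0.0334). The 2 contacts may thus stand for different bins, and their ratio is not a measured one. The elements 3.27 and 6.38 kb after the start scored 0.0227 and 0.0213 in Ctr-OPCs and 0.0269 and 0.0251 in IFN-γ-OPCs, again with lower activity (0.947 and 0.967 against 0.810 and 0.756). The element 30.1 kb before the start, within H13, had activities of 3.34 and 2.68 and scores of 0.0332 and 0.0281. The gene total of Id1 was 1.52 and 1.40, a log2 ratio of -0.11, and its promoter quantile 0.826 and 0.795. With the power law of distance in place of contact the ratio was -0.29.

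Id2 had the strongest pair of the members. Id2 (ENSMUSG00000020644, chr12:25093799-25097140, minus strand) encodes an Id protein that binds E proteins and restrains differentiation of the lineage. The element 0.927 kb after its start, which overlaps an annotated start of Id2, scored 0.118 in Ctr-OPCs against 0.132 in IFN-γ-OPCs, within the top 2.32% and 1.58% of all scores, with activities of 4.23 and 3.77. The element 1.78 kb before the start had activities of 2.83 and 2.08 and scores of 0.0786 and 0.0731, a connection in both. Together the listed elements held 30.0% and 31.4% of the gene total, the largest share among the members in both tables.

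Contact was higher in IFN-γ-OPCs in all 5 pairs of Id2 and activity lower in all 5. The elements 3.88 and 1.78 kb before and 0.927 kb after the start held the same contacts, 0.0217 and 0.0283. The widest activity ratio was at the element 4.60 kb after the start, with activities of 1.69 and 1.13, a log2 ratio of -0.59 that lay just past 1.5-fold lower and was -0.48, no longer past it, with each table divided by its median. Its contacts were 0.0182 and 0.0278, past 1.5-fold higher, and its scores 0.0395 and 0.0387. The element 3.88 kb before the start followed the same course, with activities of 1.41 and 1.04, contacts of 0.0217 and 0.0283 and scores of 0.0392 and 0.0365. The gene total of Id2, 0.781 and 0.808, was the only one of a member with a log2 ratio above 0 (0.05), and the ratio was -0.25 where the power law of distance stood in for contact. Its promoter quantile was 0.822 and 0.782.

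The farthest pair of Id2 lay 971 kb before its start. Its activity was 3.90 and 3.18, its contact 0.00503 and 0.00848, 1.69-fold, and its score 0.0251 and 0.0333. Contact over that given by the power law was 3.99 in Ctr-OPCs against 6.73 in IFN-γ-OPCs, where the median pair listed at 500 to 1000 kb had 2.39 and 2.98. These medians hold for listed pairs alone. The same element had 6 targets in Ctr-OPCs, of which the noncoding Gm36723 scored highest, at 0.0477. The interferon-induced antiviral gene Rsad2 was among them at a score of 0.0218, and was not listed for it in IFN-γ-OPCs.

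Id3 had the largest gene total of the members and exchanged 1 connection for another. Id3 (ENSMUSG00000007872, chr4:136143497-136145755, plus strand) encodes an Id protein induced by BMP along with Id1. Its total was 2.35 and 2.11, a log2 ratio of -0.16, with promoter quantiles of 0.827 and 0.826. The element 3.01 kb before the start was a connection in both, with activities of 2.13 and 2.07, contacts of 0.0721 and 0.0837 and scores of 0.0652 and 0.0821. The element 8.19 kb before the start scored 0.0618 in Ctr-OPCs against 0.0480 in IFN-γ-OPCs, and the element 4.43 kb after it scored 0.0443 and 0.0576. In both of these the contact differed more than the activity, from 0.0721 to 0.0495 with activities of 2.02 and 2.05, and from 0.0623 to 0.0837 with activities of 1.67 and 1.45. The contact of Id3 was thus lower in the bin before and higher in the bin after that of its start in IFN-γ-OPCs. The element 3.01 kb before the start, in the start's own bin, has no separately measured contact. Its value equalled that of the bin before in Ctr-OPCs (0.0721) and that of the bin after in IFN-γ-OPCs (0.0837). Its contacts and scores therefore do not compare the same place between the conditions.

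The remaining elements of Id3 were weaker. The one 7.29 kb before the start scored 0.0287 and 0.0213 with activities of 0.934 and 0.906. The one 1.09 kb after the start was listed only in Ctr-OPCs, at a score of 0.0284, and the one 38.5 kb before it only in IFN-γ-OPCs, at 0.0287.

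Id4, which encodes an Id protein with a known part in holding precursors back from differentiating, had 2 pairs in IFN-γ-OPCs and was not listed in Ctr-OPCs. Id4 (ENSMUSG00000021379, chr13:48261228-48266026, plus strand) had a gene total of 0.739 and a promoter quantile of 0.827. Its elements, 33.3 kb before and 755 kb after the start, scored 0.0257 and 0.0223. Both were listed for other genes in Ctr-OPCs, with activities of 2.28 and 4.71 there against 2.04 and 3.42 in IFN-γ-OPCs, so the elements themselves were called in both conditions. The starts of the noncoding genes Gm49291 and A330033J07Rik, 1363 and 1395 bp away, shared these pairs.

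Gene totals of the members differed little between the conditions. In Ctr-OPCs the order from high to low was Id3, Id1, Bmp7, Smad7, Smad6, Bmpr1a, Id2 and Bmp4, and in IFN-γ-OPCs it was Id3, Id1, Smad7, Bmp7, Bmpr1a, Id2, Id4 and Bmp4. With 1 value per condition there is no spread by which neighbours such as Smad7 and Bmp7 could be told apart. Of the 7 members listed in both, 6 were lower in IFN-γ-OPCs, with a median log2 ratio of -0.11, and 0 passed 1.5-fold in either direction. Dividing each table by its median total turned only Bmpr1a, to 0.02. Over all genes 0.615% passed 1.5-fold higher and 0.118% lower, the median log2 ratio was -0.07 with an SD of 0.19 across genes, and 35.7% were above 0. The plot of totals and promoter quantiles shows Bmp4 with the widest gap in quantile.

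**Figure D3:**
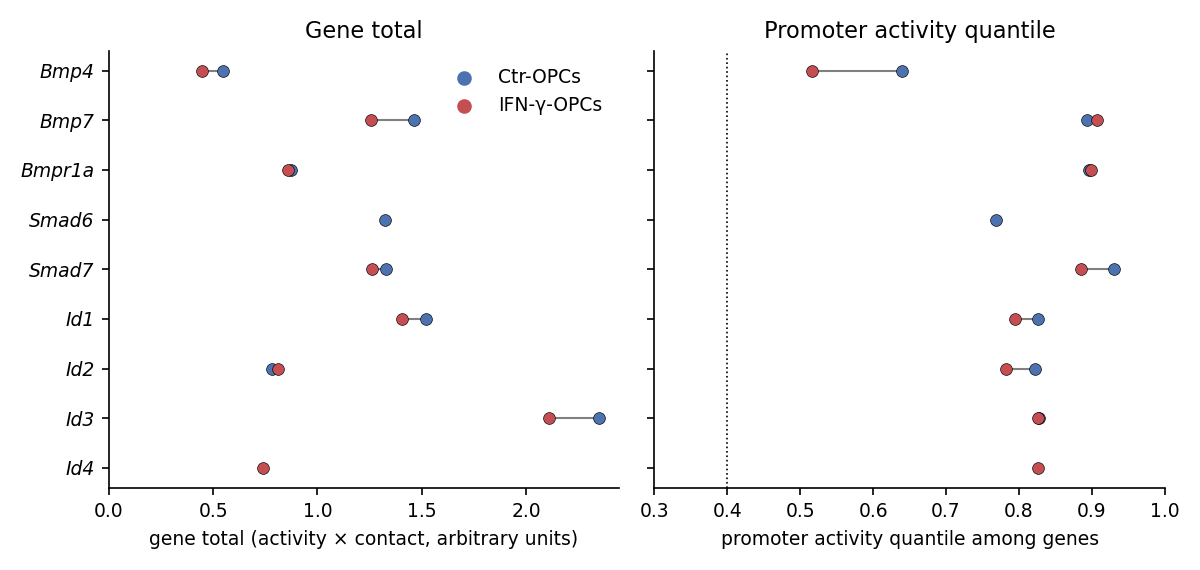
Gene total (left, activity times contact in arbitrary units) and promoter activity quantile (right) of the 9 genes, with Ctr-OPCs in blue and IFN-γ-OPCs in red, 1 pooled value each; the dotted line marks 0.4, under which no gene was listed. Bmp4 had the lowest values in both panels and the widest gap in quantile (0.640 against 0.516), and Smad6 and Id4 have a value in 1 condition only.

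For the 10 member pairs above the cut-off in either condition, activity had a median log2 ratio of -0.10, with 4 higher and 6 lower, and contact one of 0.37, with 7 higher and 3 lower. The medians were -0.07 over all such elements and 0.05 over all such pairs, with 43.8% and 54.7% above 0. With each table's activity divided by its median the 10 were split into 5 higher and 5 lower, with a median of 0.01. In activity 1 of the 10 passed 1.5-fold higher and 0 lower, where 11.8% and 13.6% of all did. In contact 1 passed higher and 0 lower, against 14.5% and 10.7%, so the members' counts lie near the background. Over all 22 pairs in both tables, 16 had lower activity (median -0.21; 13 after division by the table medians), 13 had higher contact (median 0.29), and the score was higher in 11 and lower in 11 (median -0.01). Of all matched elements 42.1% had higher activity, and of all matched pairs 54.6% had higher contact and 51.5% a higher score, so the members' split in contact and score lies near that of all pairs. The score thus had no common direction among the members.

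**Figure D4:**
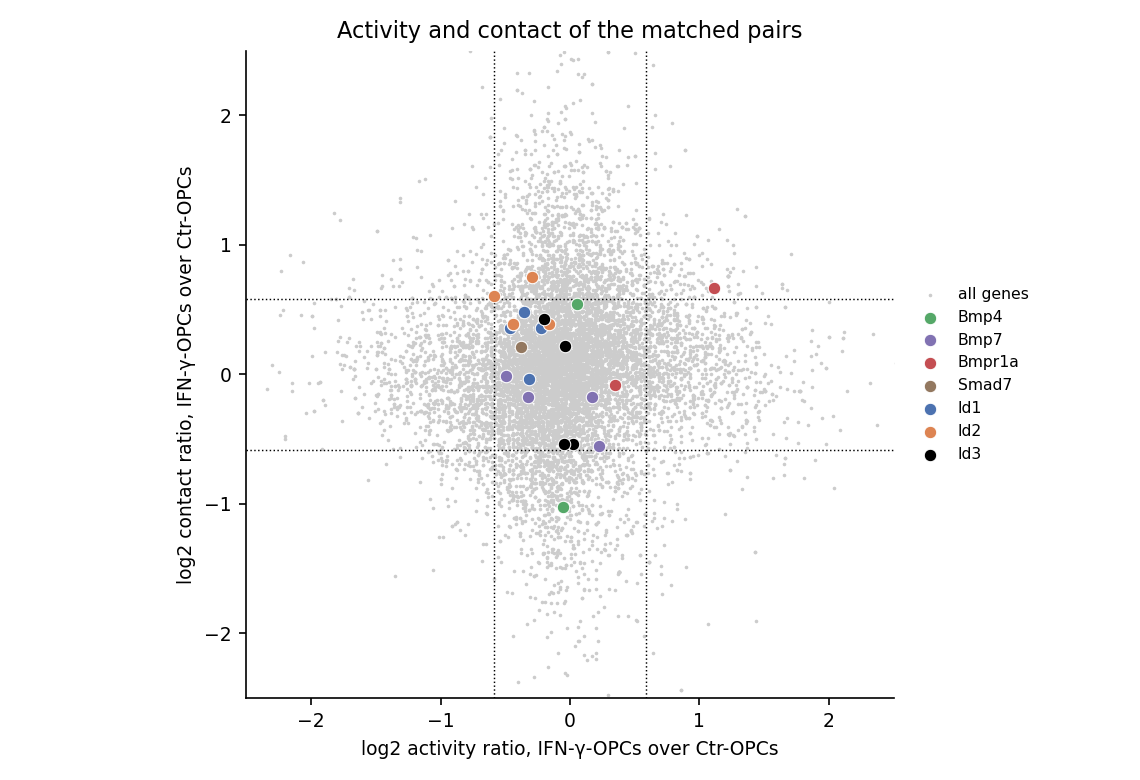
Log2 ratio of activity (horizontal) and of adjusted contact (vertical), IFN-γ-OPCs over Ctr-OPCs, for the 22 pairs of members in both tables (coloured by gene) and, in grey, the 11490 matched pairs of all genes above the cut-off in either condition, 40 of which lie outside the axes; dotted lines mark 1.5-fold. The pairs of Id1 (blue) and Id2 (orange) all lie left of 0. Past 1.5-fold on both axes lie 1 pair of Bmpr1a, higher in both, and 1 of Id2, just past it with lower activity and higher contact. Among the 22 member pairs, 1 of Bmp4 has the lowest contact ratio, -1.03.

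Contact close to a gene start has a coarse grain in these tables. It is given in bins of 5 kb, and 19 of the 27 member pairs in Ctr-OPCs and 18 of the 30 in IFN-γ-OPCs lay in the start's own bin or the one beside it. For the genes with all of these bins listed (587 and 613), contact in the start's own bin equalled the higher of its neighbours to within 1% in 99.8% and 100%. The contact of the own-bin pairs (7 and 6 of the members) was therefore not a separate measurement. Among them are the elements 1.07 kb before Id1, 1.78 kb before Id2 and 3.01 kb before Id3. For Id1 and Id3 it did not equal the same neighbour in both conditions. The counts of higher contact given above include such values.

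Other genes of the pathway showed a like pattern of small differences. Of 59 such genes 52 were listed in at least 1 table and 44 in both, with a median log2 ratio of the total of -0.07, 14 above 0 and 0 past 1.5-fold. The 4 Smads that carry the signal were all above 0, with a median of 0.07: Smad1 0.854 and 0.856, Smad5 1.14 and 1.18, Smad9 0.554 and 0.595, and the shared partner Smad4 0.765 and 0.815 as gene totals. All 7 further BMP target genes listed in both were below 0 (median -0.14), among them the Notch and BMP effector Hes5 with totals of 2.06 and 1.68. Of all genes listed in both, 35.7% were above 0. Medians were -0.07 for other ligands, -0.15 for other receptors, 0.03 for secreted antagonists, -0.05 for intracellular regulators and -0.08 for the bHLH partners of Id proteins.

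Connections of these pathway genes numbered 28 in Ctr-OPCs against 27 in IFN-γ-OPCs. The genes with more were the receptors Acvr1 and Acvr2b, the signal carrier Smad5, the antagonist Chrdl1 and the lineage factor Olig2, 5 in all. Among those with fewer were Smad9, the extracellular modulator Twsg1, the Smad co-repressor Skil, the BMP target Atoh8 and the bHLH factor Tcf12. The pathway genes listed in at least 1 table numbered 52, and over all such genes 14.9% had more and 13% had fewer. Each number differed by 1, and Acvr1 was not listed at all in Ctr-OPCs, so that its difference is not a measured one. Their totals are set beside those of the members in the plot of pathway totals.

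**Figure D5:**
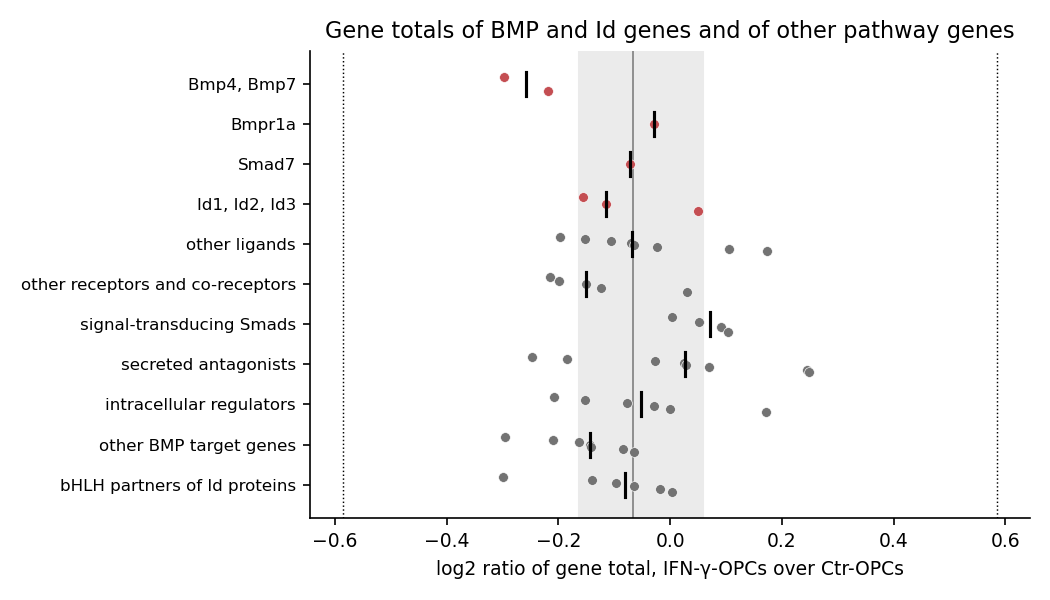
Log2 ratio of gene total, IFN-γ-OPCs over Ctr-OPCs, for the members (red) and the other pathway genes (grey points) listed in both tables, 1 point per gene; black bars are list medians, the grey line and band are the median (-0.07) and quartiles (-0.16 to 0.06) of all genes, and dotted lines mark 1.5-fold. All points lie inside the dotted lines, and the 4 signal-transducing Smads all lie above 0.

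Protein-coding genes whose listed elements fell in the same 5 kb bins were few, as measured by the share of a member's bins over both tables. All 4 bins of Bmpr1a (100%) were also listed for 9230112D13Rik, 3 of the 6 bins of Id1 (50%) for Cox4i2, and 3 of the 8 of Bmp7 (37.5%) for Spo11. Id4 shared 1 of its 2 bins (50%) with Wnk2, Fam120a and Phf2. For Bmp4 and Id2 the highest share was 1 bin, 16.7% and 12.5%, and for Id3, Smad6 and Smad7 no protein-coding gene shared any.

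The label of the cells was checked by promoter activity. All 6 OPC markers were listed in both tables, with a median quantile of 0.928 in Ctr-OPCs against 0.937 in IFN-γ-OPCs, above each of the other lists: neurons 0.777 and 0.764, maturing oligodendrocytes 0.743 and 0.737, astrocytes 0.696 and 0.631, microglia 0.621 and 0.625, and vascular cells 0.618 and 0.466. Single genes of the lists overlapped. The lowest OPC marker, Pdgfra (0.851 and 0.815), lay below the highest neuron marker, Tubb3 (0.870 and 0.868). In IFN-γ-OPCs it also lay below the astrocyte marker Slc1a2 (0.856) and the microglia marker P2ry12 (0.825). Of the 6 microglia markers 3 were listed in Ctr-OPCs against 5 in IFN-γ-OPCs, a difference that stands beside those of the members. The vascular medians rest on different genes, with Pdgfrb alone listed in both (0.618 and 0.744), and of the 4 astrocyte markers Gfap and Slc1a2 had higher and Aldh1l1 and Gja1 lower quantiles in IFN-γ-OPCs. The part of any of these cells in the members' values was not tested.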

How the data were processed

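Mouse OPC H3K27ac HiChIP was analysed from 2 tables of ABC predictions, 1 per condition, each made by the authors from the pooled reads of 3 libraries, with HiC-Pro and mm10 named in the submitters' processing notes. The deposited ABC score is a fraction of the gene total, the deposited activity (from merged ATAC-seq and H3K27ac CUT&RUN alignments) and contact are signals, and the power-law score and promoter quantile were deposited as scores. How activity and contact were scaled between conditions is not given in the sources used here beyond default parameters, so a difference in scale cannot be told apart from a difference between conditions. A single contact map (1) is named in the labels of every library, and which map gave the contacts of each table is not given in the sources used here. The remaining 4 of 6 files hold the same pairs and scores and were not used. Depth is unknown, and with 1 table per condition no test, error or p-value was computed for any difference between conditions.

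Pairs of a gene were matched between tables when their elements overlapped by at least 1 bp, and the gene total was activity times contact over score. Distances and gene positions used GENCODE M21 (GRCm38). Scripts ran in Python 3.11.15 (SciPy 1.17.1, matplotlib 3.10.9, NumPy 2.4.6, pandas 2.3.3). The matching was tested on simulated data in which elements were shifted but kept their length. Elements that change length, as some did between these tables, were not covered by it. All 9 members are named, with the pathway genes past 1.5-fold in gene total or with a changed number of connections, except for 1 item not reported here. Smad1, Smad4, Hes5 and neighbouring genes that share an element or lie beside a start were named after their values were seen. For each member up to 3 protein-coding genes were named by the share of its 5 kb bins, ties by summed score. Smad7 elements were not searched for sequence patterns. The members and lists were chosen with earlier results of these data known. Alternatives tried were other score cut-offs, the power-law score, matched numbers of connections, division by each table's median, stricter overlap, contact before the pseudocount and all matched pairs.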

Additional observations from a re-analysis of the deposited data

How the results depend on the processing

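No paired analysis was possible because the libraries of a condition (3 each) were deposited as 1 pooled table, and for the same reason no library could be left out. The number of members' connections followed the cut-off: over all deposited pairs there were 27 in Ctr-OPCs against 30 in IFN-γ-OPCs, from 8 members in Ctr-OPCs, at a cut-off of 0.1 there was 1 in each, from 1 member in each (an element of Id2, shared by both, hence 100% and 100%), and the power-law score gave 16 and 15, from 7 members in Ctr-OPCs. Bmp4, with 1 connection more in IFN-γ-OPCs, had a difference of -3 over all deposited pairs and of -2 with the power-law score. Divided by each table's median, the members' median log2 gene total was -0.066 and their median log2 activity 0.0062. Over all matched pairs the median log2 activity was -0.21, with 1 past 1.5-fold lower, and the median log2 contact 0.29, with 3 past 1.5-fold higher and 1 lower. Contact before the pseudocount had a median of 0.39. The sign of the median activity thus turned with the scaling. In 29 other recomputations the median kept its printed value, the count stayed within 1.5 times or the share within its exact binomial interval. That interval rests on 7 and 9 connections and treats linked pairs as independent. A share that stays within it therefore shows little. Counting each pair of 5 kb contact bins once, an alternative added after seeing the data, left the median contact at 0.37. The unknown depth and the single pooled table per condition limit every difference given here.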
